A study of Drosophila melanogaster with 6 samples.

Results

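LTR retrotransposon insertions are the genomic copies of mobile elements that are bounded by long terminal repeats. They were taken as the transposable element entries of the deposited expression table whose name before the braces is one of the LTR families *roo*, *297*, *412*, *copia*, *17.6*, *blood*, *mdg1*, *mdg3*, *Tirant*, *gypsy* with any number, *Burdock*, *opus*, *1731*, *3S18*, *Quasimodo*, *Stalker* with any number, *diver*, *invader* with any number, *Idefix*, *micropia*, *rover*, *flea*, *springer* or *HMS-Beagle*. This rule selected 1144 of the 5578 transposable element entries and of the 23932 entries of the table, in 43 families, and it used no measured value. RNA-seq of the salivary glands (SGs) of *Drosophila melanogaster* larvae in the third instar (L3) compared a mutant that lacks dE2F1b, an isoform of the transcription factor E2F1, with the *w1118* strain. The control group held *w1118* replicates 1 and 4 (n = 2), and the mutant group held *de2f1b* replicates 1, 2, 3 and 4 (n = 4). In its imaging the study used the mutant allele over a deficiency of the locus, and the allelic combination of the sequenced glands, the age of the larvae within L3, their sex and the number of larvae pooled in a library were not given in the sources used here.

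LTR retrotransposons copy themselves through an RNA that is transcribed from the 5′ repeat of a full copy, translated into gag and pol proteins and reverse transcribed, as in retroviruses. Many members of the *gypsy* group also carry an *env* gene. In the germ line and in the follicle cells of the ovary their RNA is kept low mainly by the piRNA pathway, and in other somatic tissues mainly by small interfering RNAs made by Dcr-2 and loaded on AGO2. The larval SG is a polyploid secretory tissue, so that an insertion in a chromosome arm is present in many copies in each nucleus unless its region is under-replicated.

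The values are normalized counts, the reads of each insertion divided by 1 size factor per library. The libraries held between 56495956 and 94907006 reads on all entries, and 1 read was worth between 0.782 and 1.37 normalized counts. A count of 0 therefore allowed a value of up to 2.35 to 4.11 at 95% confidence, for counting error only. Salivary gland markers, the *Sgs* glue genes among them, were high in every library, with a summed normalized count between 7956060 and 19800300. Of the 10 gland genes 2 lay lower in every mutant library and 0 higher, beside 16.0% and 17.4% of all tested entries. *sage* had 83693 and 149564 against 36174 to 80175 (limma, adjusted p = 0.187). *CrebA* had 30636 and 56104 against 16122 to 29751 (adjusted p = 0.218). RNA of other tissues was present in some mutant libraries. In *de2f1b* replicates 3 and 4, 6 of 8 ring gland genes were over 10 times the higher control, and in replicate 3 so were 7 of 8 testis genes. The 7 midgut genes summed to 327834 in *de2f1b* replicate 1 and 35105 in replicate 3, against at most 100 in the controls, 42.5 in replicate 2 and 165 in replicate 4. Of 8 nervous system genes, 3 were over 10 times the higher control in replicate 3 and 1 in replicate 4, and of 8 ovary genes 1, 2, 3 and 1 were in replicates 1 to 4. In replicates 1 and 4 the ovary gene was *Yp3*, while *Yp1* was at most 3.67 and *Yp2* at most 18.8 in every library. Some markers differed in all 4 mutant libraries, replicate 2 included. The fat body gene *apolpp* rose from 81305 and 72114 to between 166196 and 292194 (limma, adjusted p = 0.043). Of the 8 fat body genes 2 lay higher in every mutant library and 0 lower. *Lsp1beta* and *Lsp1gamma* had log2 fold changes of −0.31 and −0.65 with overlapping groups. The hemocyte gene *eater* fell from 429 and 378 to between 109 and 172 (adjusted p = 0.0439). Of the 8 hemocyte genes 3 lay lower in every mutant library and 1 higher. The higher one was *NimC1*, at 95.9 and 122 against 186 to 260, which was not called (adjusted p = 0.086). The nervous system gene *Cadps* rose from 714 and 602 to between 1091 and 1338 (adjusted p = 0.0376), and the yolk protein gene *Yp3* from 114 and 57.7 to between 2709 and 4424 (adjusted p = 0.00136). *Cadps* was the only 1 of the 8 nervous system genes whose groups did not overlap. The 9 muscle genes summed to 51790 and 26243 in the controls and to 61107, 47524, 96850 and 165196 in *de2f1b* replicates 1 to 4. The part of these tissues in the LTR values was not tested. In addition, fewer cells of a type and less RNA per cell cannot be told apart in bulk glands. Which of the annotated insertions the mutant and control stocks carry is not given in the sources used here either, so the presence of an insertion and the RNA made from it cannot be told apart.

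Reads assigned to LTR insertions were between 0.00423% and 0.0176% of the normalized counts. How reads that fit several copies were treated is not given in the sources used here, so the share of LTR RNA may differ. Summed over the 1144 insertions, the normalized count was 6080 and 3678 in the *w1118* libraries and 13266, 9085, 8992 and 9167 in the *de2f1b* libraries. Every mutant library lay above both controls, and the mutant mean was 2.08-fold the control mean (10127 ± 2094, SD, n = 4, against 4879 ± 1698, n = 2). The copia family made up 69.5% and 50.7% of the sum in the controls and between 34.8% and 50.7% in the mutants. Without copia, the sum was 1856 and 1811 in the controls and 6542, 5927, 4718 and 4800 in the mutants, a ratio of 3.00. Without copia and roo it was 1102 and 1122 against 3693, 2211, 3244 and 2410, again with no overlap between the groups. No test was run on sums over the insertions.

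Most annotated copies had few or no reads assigned to them. Reads that fit several copies may have been dropped, so few assigned reads do not show that a copy gave little RNA. No library held a read on 529 of the 1144 insertions, and a further 439 had reads but failed the filter, which asked for a value of 10 or more in 2 or more libraries. The remaining 176 insertions, of 27 families, were tested together with all other entries of the table (11099 in all) using limma on log2(normalized count + 1), and an insertion was called at a Benjamini-Hochberg adjusted p under 0.05. Of the 176, 119 passed the filter only through mutant libraries, with both controls under 10, and 2 only through the controls. An insertion that passed only through the mutants had to lie higher there, so the counts over the tested insertions are descriptions of these libraries. Copies of at least 4000 bp were 505 of all insertions (44.2%), 156 of the tested ones (88.6%) and 23 of the 27 called ones.

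Among the 176 tested insertions, 25 rose in *de2f1b* SGs and 2 fell, which is 14.2% and 1.14%, beside 3.17% and 1.07% of all tested entries. The 27 called insertions, 15.3% of those tested beside 4.24% of all tested entries, belonged to 13 families. On the recovered reads edgeR called 12 higher and 1 lower (1.78% and 0.802% of all tested entries), and DESeq2 65 and 2 (9.8% and 5.01%). At an unadjusted p under 0.05, 113 were higher and 5 lower, beside 12.5% and 9.09% of all tested entries. The mutant libraries all lay above both controls for 131 tested insertions (74.4%) and all below for 6 (3.41%), beside 17.4% and 16.0% of all tested entries. Over all 1144 insertions the same was true of 174 (15.2%) and 24 (2.10%), beside 9.53% and 8.12% of all entries of the table. The log2 fold change was above 0 for 165 of the 176, beside 51.5% of all tested entries, with a median of 1.95 against 0.02. Part of this background has far higher counts. Of 2510 tested entries under a mean of 100 that are not transposable elements, 1888 were above 0, with a median of 1.03. Of these 26.2% lay higher in every mutant library and 6.81% lower. Of the 164 LTR insertions under that mean, 157 were above 0, with a median of 1.94. Among them 75.6% lay higher and 1.83% lower. In the single libraries, the median log2 difference of the tested insertions from the control mean was 2.19, 2.39, 1.48 and 1.93 in *de2f1b* replicates 1 to 4. It was lowest in replicate 3 and highest in replicate 2.

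The direction was less uniform among the insertions with reads in both controls. Of the 32 tested insertions at 10 or more in both *w1118* libraries, 22 had a log2 fold change above 0 and 10 below. Of all tested entries, at any control level, 51.5% were above 0. The groups of the 32 did not overlap in 13 that lay higher and 6 that lay lower, beside 17.4% and 16.0% of all tested entries at any control level. The median of the 32 was 0.87, beside −0.08 over all tested entries with both controls at 10 or more. The counts of calls rested on single libraries. Without *w1118* replicate 4 limma called 5 insertions higher and none lower (6 higher and 0 lower without *de2f1b* replicates 3 and 4 together), and without *de2f1b* replicate 1 it called 7 higher and 1 lower. Calls over all 11099 tested entries fell too, from 352 higher and 119 lower. They were 69 and 5 without *w1118* replicate 4, 111 and 43 without *de2f1b* replicates 3 and 4, and 111 and 40 without *de2f1b* replicate 1. *copia{}1016*, *copia{}399*, *copia{}988*, *springer{}1464* and *1731{}2219* stayed past the threshold whichever single library was left out.

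The largest single difference in level was that of *copia{}1016* (FBti0020127), a copy of 5163 bp on the plus strand of chromosome 3L (3L:16684075-16689237, BDGP6). Copia encodes its gag and pol proteins in 1 reading frame and has no *env* gene. Its normalized count was 39.2 and 17.4 in *w1118* and 1749, 844, 1104 and 1261 in *de2f1b*. Every mutant library lay far above both controls, and the log2 fold change was 5.46 (SE 0.42, adjusted p = 0.0026). Per kb this copy had the highest mutant mean among the named insertions of at least 4000 bp, 240.0 normalized counts against 5.48 in the controls. It lies in introns of *Lasp*, a muscle actin-binding protein gene, and of *CG43954*, on the opposite strand of both, and both genes were listed at 0 in every library.

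*copia{}399* (FBti0019193, 2L:17819978-17825122) had the largest fitted change of all members, 7.53 on the log2 scale (SE 0.59, adjusted p = 0.00261). The controls held 0 and 1.83 normalized counts, from 2 reads in all, and the mutants 433, 186, 346 and 327. The ratio of the reads, scaled by library, was 374, with an exact counting interval of 103 to 3091 that covers counting error only. This insertion lies in an intron of *CadN2*, a cell adhesion gene of the cadherin family, on the strand of the gene, and it was the only called insertion inside a gene to do so. *CadN2* itself had 2.50 and 5.50 in the controls and 20.01, 15.1, 97.7 and 39.1 in the mutants, with no overlap but an adjusted p of 0.138 in limma. *copia{}988* (FBti0020099, 3L:12957842-12962265) lay outside genes, 2095 bp from *Or69a*, an odorant receptor gene with no value above 6.67. It rose from 6.67 and 3.67 to 632, 264, 411 and 332, a log2 fold change of 6.02 (SE 0.46, adjusted p = 0.0026).

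The remaining copia copies that rose were weaker in fold. *copia{}837* (2R:16539693-16544843) went from 35.0 and 20.2 to 598, 241, 368 and 302, a 13.7-fold difference of the means (log2 3.69, SE 0.45, adjusted p = 0.0104). The nearest gene, *loopin-1*, was at 0 in both controls and in *de2f1b* replicate 2 and at 2242 in replicate 3. *copia{}631* (2R:5217753-5222897), in an intron of *Nipped-A*, a subunit of histone acetyltransferase complexes, went from 21.7 and 7.33 to 241, 133, 143 and 204. *copia{}1684* (2L:20157413-20164268) had 83.4 and 15.6 in the controls, the widest control spread of the 10 in normalized counts, and 463, 255, 333 and 329 in the mutants. *copia{}466* (2L:20272782-20277925), *copia{}1391* (3R:20109593-20114740), *copia{}RR48347* (3R:4105093-4110238) and *copia{}RR48341* (3L:26555434-26560590) had control values between 0.917 and 11.9 and mutant values between 41.4 and 207. In these 4 copies too the highest value was in *de2f1b* replicate 1. The log2 fold changes of the 4 lay between 2.84 and 4.64 and the adjusted p between 0.0162 and 0.0483.

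**Figure D1:**
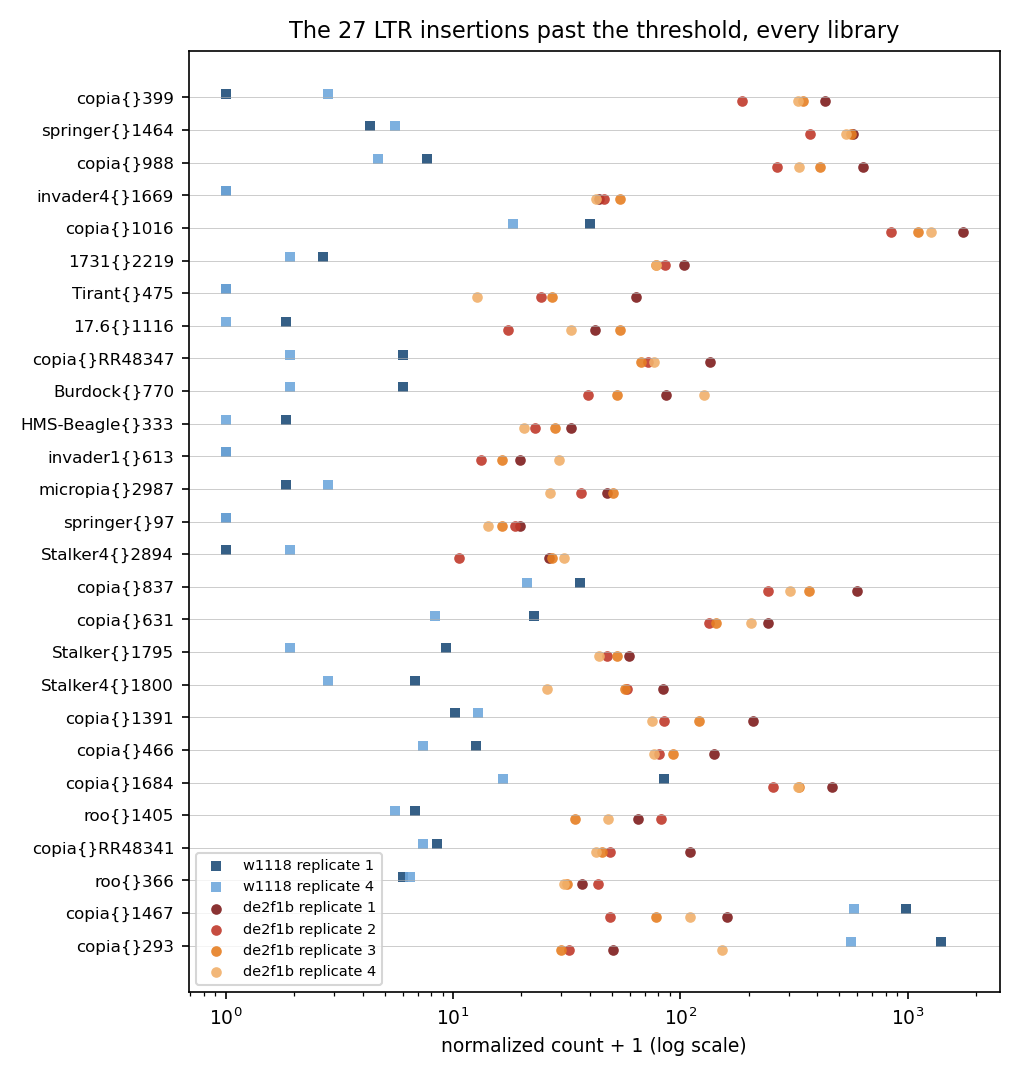
Normalized count plus 1 (log axis) of the 27 LTR insertions past the threshold, with squares for the *w1118* libraries and circles for the *de2f1b* libraries. For 25 insertions all 4 circles lie to the right of both squares, and for *copia{}1467* and *copia{}293* all lie to the left.

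The 2 insertions that fell were both copia, and they were among the most abundant LTR insertions of the controls. *copia{}293* (FBti0019110), of 5147 bp on the minus strand (2L:2294097-2299243) and 860 bp from *CG31949*, had 1399 and 563 normalized counts in *w1118* and 49.4, 31.5, 28.9 and 152 in *de2f1b*. The highest mutant library, replicate 4, lay well under the lower control, and the log2 fold change was −4.09 (SE 0.75, adjusted p = 0.0371). *copia{}1467* (FBti0019469, 3R:31413145-31418286) lies in an intron of *Gprk2*, a G protein-coupled receptor kinase gene, on the opposite strand. It had 986 and 579 in the controls and 160, 47.9, 76.9 and 110 in the mutants, a log2 fold change of −3.06 (SE 0.52, adjusted p = 0.0298). The groups of *Gprk2* overlapped, with 2466 and 2720 against 2490, 2251, 2333 and 2399 (log2 fold change −0.13, adjusted p = 0.58). *copia{}387* (2L:16141218-16146366) was lower without being called, at 189 and 84.3 against 62.7, 27.4, 47.0 and 58.7 (log2 fold change −1.42, adjusted p = 0.194). Both calls rested on the 2 controls, since without *w1118* replicate 1 the adjusted p was 0.168 for *copia{}293* and 0.15 for *copia{}1467*, and without replicate 4 it was 0.182 and 0.177.

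Within the copia family the shares of single copies differed between the groups while the family sums overlapped. Its 39 entries summed to 4223 and 1866 in *w1118* and 6724, 3157, 4274 and 4367 in *de2f1b*. The 10 copies that rose gave 5.19% and 4.91% of the copia reads in the controls and 70.0%, 69.8%, 70.8% and 69.2% in the mutants. The 2 copies that fell gave 56.5% and 61.2% in the controls and 3.11%, 2.52%, 2.48% and 5.98% in the mutants. The copies in both groups were chosen by their calls, so these shares describe the libraries and are no test. *copia{}920* (FBti0020031, 3L:3601354-3606606), in an intron of the ecdysone-induced kinase gene *Eip63E*, was the most abundant copy with no call. It had 1248 and 468 in the controls and 1254, 501, 700 and 734 in the mutants, a log2 fold change of −0.02 with a 95% interval of −1.19 to 1.14. Its share of the copia reads was 29.6% and 25.1% in the controls and 18.6%, 15.9%, 16.4% and 16.8% in the mutants. The other 26 entries, of which 17 were tested, gave between 8.02% and 11.8% in every library.

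**Figure D2:**
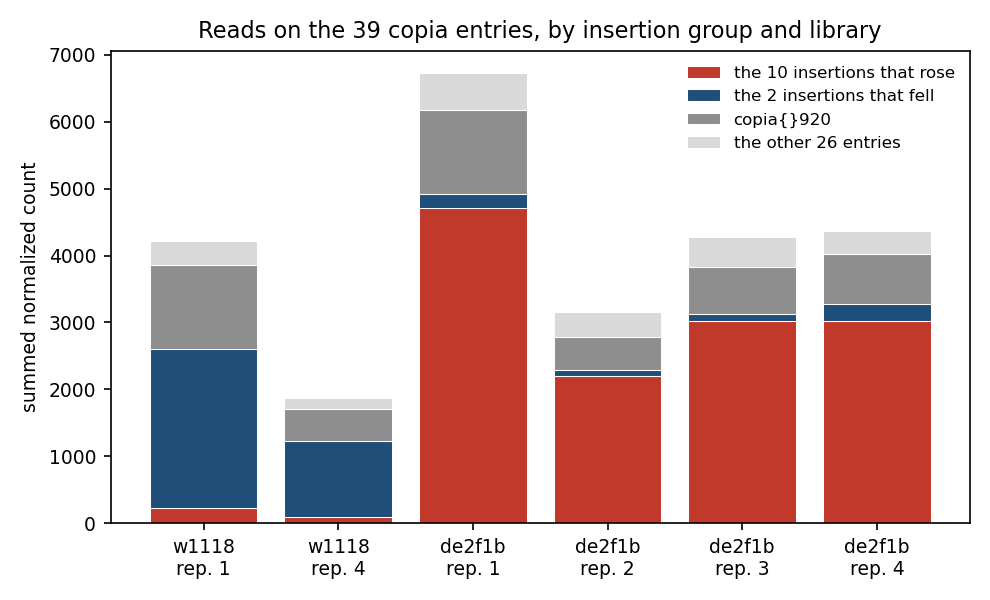
Summed normalized count of the 39 copia entries in each library, split into the 10 insertions that rose, the 2 that fell, *copia{}920* and the other 26 entries. The 10 insertions that rose take 69.2% to 70.8% of each mutant bar and 4.91% to 5.19% of each control bar.

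The roo family showed another pattern, a difference spread over many copies. Roo is an element of the BEL group and has the most entries of the families described, 140, of which 112 reach 4000 bp. Its summed normalized count was 755 and 689 in *w1118* and 2849, 3716, 1474 and 2390 in *de2f1b*, a 3.61-fold difference of the means without overlap. Of its 94 tested insertions 92 had a log2 fold change above 0, beside 51.5% of all tested entries, with a median of 1.87. In 74 every mutant library lay above both controls, beside 17.4% of all tested entries. Among tested entries under a mean of 100 that are not transposable elements this share was 26.2%. Only *roo{}1405* and *roo{}366* were called, beside 3.17% of all tested entries called higher. At an unadjusted p under 0.05, 63 were higher, beside 12.5% of all tested entries. Each copy was low, with a mean over the 6 libraries between 4.64 and 44.4. The order of the mutant libraries was nearly the same from copy to copy. Replicate 2 was the highest mutant library for 72 of the 94 and replicate 3 the lowest for 79. Reads that fit several copies may be divided among roo copies or dropped, and how the authors treated them is not given in the sources used here, so the copies may not be separate measurements.

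**Figure D3:**
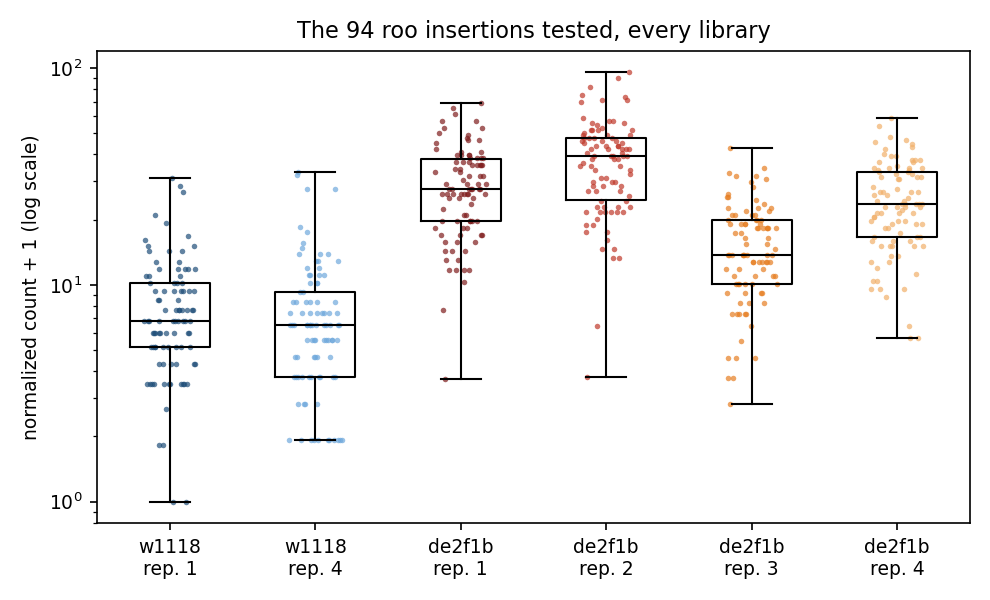
Normalized count plus 1 (log axis) of the 94 tested roo insertions in each of the 6 libraries, 1 point per insertion, with boxes for the quartiles and whiskers to the lowest and highest insertion. The median log2 difference from the control mean is 2.06, 2.47, 1.07 and 1.82 in *de2f1b* replicates 1 to 4.

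*roo{}1405* (FBti0019416, 3R:22239547-22248548) had 5.84 and 4.58 in the controls and 64.0, 80.8, 33.5 and 46.9 in the mutants, a log2 fold change of 3.14 (SE 0.55, adjusted p = 0.0332). It lies in an intron of *SKIP*, on the opposite strand, and *SKIP* ranged from 54.1 to 629 in the controls and from 114 to 1471 in the mutants. *roo{}366* (FBti0019173, 2L:13853140-13862231) lies in an intron of *CenG1A*, an Arf GTPase-activating protein gene. It had 5.003 and 5.50 against 36.0, 42.5, 30.7 and 29.7 (log2 fold change 2.50, SE 0.51, adjusted p = 0.0497), the call nearest to the threshold.

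Springer, a *gypsy*-group element, had the largest fold difference of the 8 most abundant families. Its 24 entries summed to 5.84 and 4.58 normalized counts in the controls and 643, 404, 615 and 572 in the mutants. Most of this came from *springer{}1464* (FBti0019466, 3R:31074284-31081826), which had 3.34 and 4.58 in *w1118* and 576, 373, 560 and 536 in *de2f1b*. Its log2 fold change of 6.68 (SE 0.34) had the smallest adjusted p of all members, 0.00087, and the ratio of the means was 129. It lies on the opposite strand in an intron of *Sox100B*, a Sox transcription factor gene of the gonad, which had between 0 and 7.505 in all 6 libraries. *springer{}97* (X:10348854-10356363) had no read in either control and 18.7, 17.8, 15.4 and 13.3 in the mutants. The mutant mean was at least 6.20-fold higher against 3 reads in each control library, a bound for counting error in the controls only.

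Of the other abundant families, *1731* and *mdg1* lay higher in every mutant library, and so did *flea*. The *1731* sum was 26.7 and 9.17 against 205.4, 130, 152 and 165, and its largest part came from *1731{}2219* (2R:6346949-6351596), with 1.67 and 0.917 against 103, 84.9, 76.9 and 77.4. That insertion had 3 control reads in all, and the scaled ratio of reads was 63.8, with a counting interval of 21.6 to 311 (adjusted p = 0.00428). The *mdg1* sum was 60.0 and 69.7 against 280, 137, 298 and 166, and the *flea* sum 106 and 47.7 against 291, 159, 197 and 158, both without any called insertion. *Gypsy10*, at 201 and 190 against 425, 215, 220 and 170, overlapped. *3S18* was the only family with a mean sum of at least 10 that lay lower in every mutant library, at 290 and 396 against 253, 153, 264 and 123. Its main copy, *3S18{}853* in an intron of *GEFmeso*, had 215 and 319 against 148, 100, 192 and 89.2, with a log2 fold change of −1.05 that was not called (adjusted p = 0.203).

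**Figure D4:**
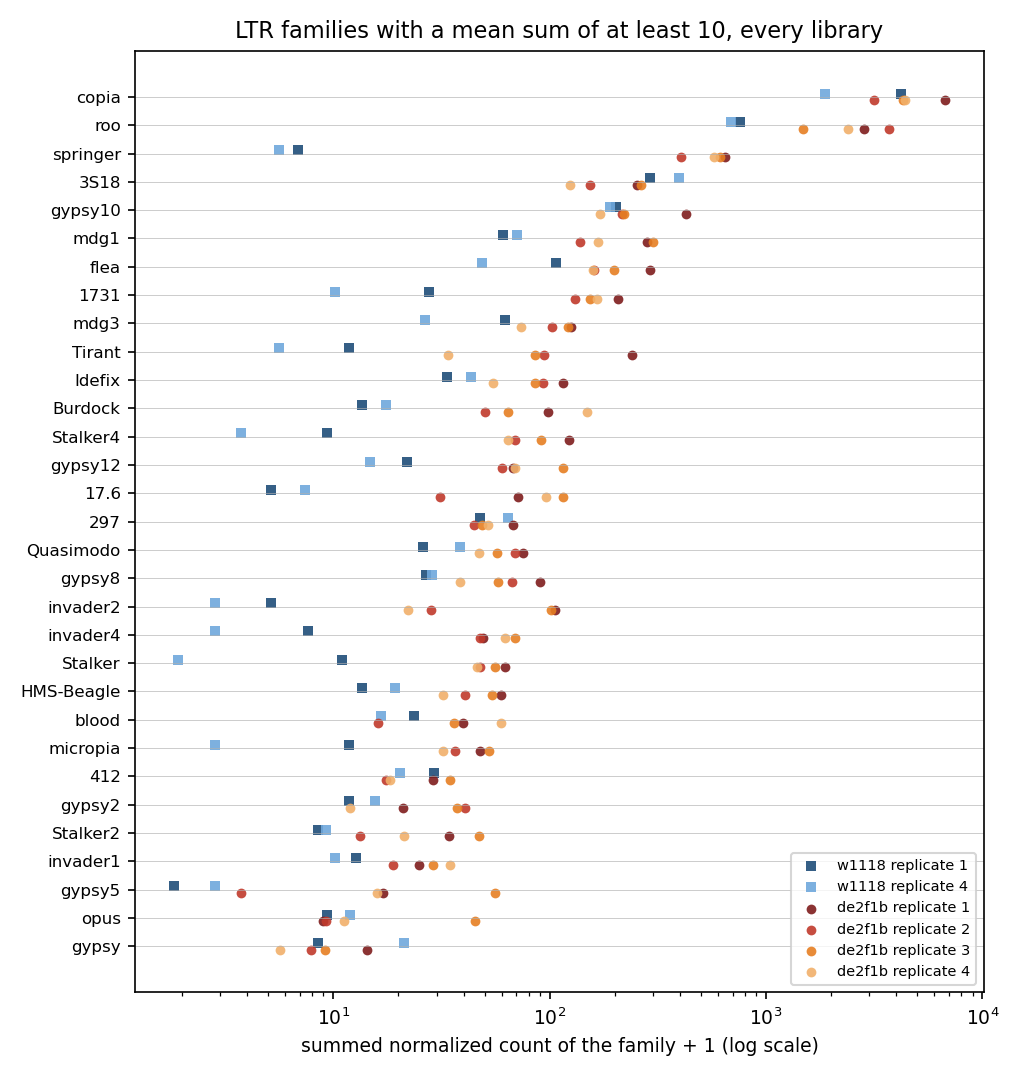
Summed normalized count plus 1 (log axis) of the 31 LTR families with a mean sum of at least 10, with squares for the *w1118* libraries and circles for the *de2f1b* libraries. In 22 families every circle lies to the right of both squares, and in *3S18* every circle lies to the left.

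Over the 31 families with a mean sum of at least 10, 22 lay higher in every mutant library, 1 lower and 8 overlapped. Of the 44 other families of transposable elements at that level, 50.0% lay higher and 11.4% lower. Besides copia, roo, springer, *1731* and the *Stalker* families, 7 families had a called insertion, 1 each, and in all 7 the controls held few reads.

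*invader4{}1669* (2R:25258153-25258888) had no control read and 42.7, 45.2, 53.4 and 41.4 normalized counts in the mutants, at least 17.4-fold higher. *Tirant{}475* (2L:20740303-20748120), inside the importin beta gene *Fs(2)Ket* on the opposite strand, had no control read and 62.7, 23.3, 26.2 and 11.7, at least 11.8-fold higher. *invader1{}613* (2R:5044082-5044502) had none and 18.7, 12.3, 15.4 and 28.2, at least 7.10-fold higher. With 0 reads in both controls these are lower bounds, the mutant mean set against 3 reads in each control library. They cover counting error in the controls only, and leave out the spread of the mutant libraries. *17.6{}1116* (3L:23072281-23079602) and *HMS-Beagle{}333* (2L:9973781-9980842) had 1 control read each. Their mutant values ran from 16.4 to 53.4 and from 19.6 to 32.0, and their scaled ratios of reads were 84.8 and 56.3 with counting intervals that start at 14.97 and 9.865. *micropia{}2987* (3L:23695479-23695985) had 3 control reads and between 25.8 and 49.7 in the mutants, a scaled ratio of 29.4 with a counting interval of 9.88 to 144. *Burdock{}770* (2R:7815727-7822138) had 5.003 and 0.917 against 85.4, 38.4, 51.5 and 126, and it covers 28 exonic bases of the lysosomal protease gene *cathD* on the opposite strand. *cathD* had 24709 and 24943 in the controls and 23834, 21409, 18209 and 22816 in the mutants, with a log2 fold change of −0.21 (adjusted p = 0.488).

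A group of insertions lies in *AGO3*, which encodes an Argonaute protein of the piRNA pathway and spans the pericentromeric part of chromosome 3L. *Stalker{}1795* (3L:23573030-23578054) had 8.34 and 0.917 normalized counts in the controls and 58.7, 46.6, 51.5 and 43.0 in the mutants. *Stalker4{}1800* (3L:23578165-23578389) beside it had 5.84 and 1.83 against 82.7, 57.5, 56.1 and 25.0. *Stalker4{}2894* (3L:23666781-23678110) had 1 control read and 25.3, 9.59, 26.2 and 29.7 in the mutants, a scaled ratio of 55.1 with a counting interval of 9.65 to 2200. All 3 rose, with adjusted p between 0.0439 and 0.0494, and all lie on the strand opposite to the gene. *mdg3{}5851*, of 99 bp in the same gene, had 48.4 and 25.7 against 123, 98.6, 118 and 68.0 and was not called (adjusted p = 0.132). *AGO3* itself had 168 and 147 against 82.7, 108, 166 and 113, with a log2 fold change of −0.46 (adjusted p = 0.483). The groups of *AGO3* overlapped, unlike those of the insertions it holds.

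The 27 called insertions were spread over the chromosomes. Of the tested insertions, 6 of 35 on 2L rose and 1 fell, 6 of 40 rose on 2R, 8 of 43 on 3L and 1 of 28 on the X, and on 3R 4 of 29 rose and 1 fell. Over all tested entries 3.17% rose and 1.07% fell. The median log2 fold change was between 1.88 and 2.05 on each of these arms. *E2f1* lies at 3R:21620304-21660871 on the arm that carries the mutation. Within 2 Mb of it 3 insertions were tested. All 3 lay higher in every mutant library, as did 74.4% of the 176 tested insertions and 17.4% of all tested entries. Of the 3, *copia{}1391* and *roo{}1405* were called, beside 15.3% of the 176 and 4.24% of all tested entries. The median of the 3 was 3.14, beside 1.86 for the 26 other insertions on 3R, and no test of 3 insertions was run.

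Inside and outside genes the tested insertions had like medians, 1.92 for the 109 that lie wholly in a gene and 1.99 for the 61 outside genes. The called insertions inside a gene were 13, and 12 of them lie on the opposite strand, which is 92.3%, beside 55.2% of the tested and 59.8% of all insertions that lie in genes of a single strand. Whether the counting used the strand of the reads is not given in the sources used here, so reads of an insertion and of a gene across it cannot be told apart. Of the 9 tested genes that hold a called insertion limma called none, beside 4.24% of all tested entries. In limma 1 was higher at an unadjusted p under 0.05, beside 12.5%. edgeR called none, beside 1.78% higher and 0.802% lower. DESeq2 called 1 higher, *CadN2*, beside 9.8%.

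Genes of the pathways that silence LTR elements were looked at by lists. Of the 29 tested piRNA pathway genes, limma called 2 higher and none lower, beside 3.17% and 1.07% of all tested entries. edgeR called 1 higher and none lower, beside 1.78% and 0.802%, and DESeq2 8 higher and 2 lower, beside 9.8% and 5.01%. In 13 of the 29 every mutant library lay above both controls and in 2 below, beside 17.4% and 16.0%. *moon*, whose protein drives transcription of piRNA clusters in the germ line, rose from 5.003 and 0 to 111, 49.3, 87.7 and 74.3 (log2 fold change 4.998, SE 0.82, adjusted p = 0.0269). *Gasz*, a mitochondrial scaffold of piRNA biogenesis, rose from 256 and 263 to 600.2, 529, 536 and 499.7 (log2 fold change 1.05, SE 0.19, adjusted p = 0.0336). *papi*, a Tudor protein of piRNA trimming, had 2732 and 1716 against 768, 959, 1257 and 1104 and was not called (log2 fold change −1.11, adjusted p = 0.0824). Germ line markers bear on this list. *vas*, an RNA helicase of germ cells, had 3.34 and 0.917 against 13.3, 15.1, 74.2 and 5.47, *nos* between 0 and 15.4 and *osk* at most 1.33. *bam*, a germ cell differentiation gene, had 1.67 and 0 against 5.34, 20.5, 25.3 and 9.38 (adjusted p = 0.138), with no overlap between the groups. Their part in the LTR values was not tested.

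No gene of the siRNA, heterochromatin and insulator lists was called by limma. Every mutant library lay below both controls in 2 of the 5 tested siRNA genes, *AGO2* and *r2d2*. The same held for 3 of the 11 heterochromatin genes and 2 of the 3 insulator genes, beside 16.0% of all tested entries. In 0 genes of these lists did every mutant library lie above both controls, beside 17.4%. Of the 5 tested siRNA genes limma and edgeR called none, and DESeq2 called 1 lower, beside 5.01% of all tested entries. In limma 1 was lower at an unadjusted p under 0.05, beside 9.09%. This was *r2d2*, at 2476 and 3148 against 2019, 2077, 1875 and 1953 (log2 fold change −0.50, adjusted p = 0.132). *Dcr-2* had 2814 and 2557 against 4000, 3796, 3214 and 2787, with overlap (log2 fold change 0.35, adjusted p = 0.325). *AGO2*, the Argonaute protein of this pathway, had 25004 and 35064 in the controls and 23543, 23302, 16569 and 18733 in the mutants (log2 fold change −0.54, SE 0.23, adjusted p = 0.233). Of the 11 tested heterochromatin genes, the 3 tools called none, with 1 lower at an unadjusted p under 0.05 in limma, beside 9.09% of all tested entries. Of the 3 tested insulator genes limma and edgeR called none and DESeq2 1 lower, beside 5.01% of all tested entries. *su(Hw)*, which binds an insulator within *gypsy*, had 5077 and 6709 against 3463, 3753, 3140 and 2893 (log2 fold change −0.82, SE 0.18, adjusted p = 0.058).

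Other classes of transposable elements gave the background for the LTR insertions. Of 157 tested non-LTR insertions 2 rose, and 22.9% lay higher in every mutant library, with a median log2 fold change of 0.57. Of 62 tested DNA transposon insertions 2 rose, 32.3% lay higher and the median was 0.49. Of 79 tested INE-1 insertions 3 rose and 1 fell, 26.6% lay higher and the median was 0.41. The 15 tested insertions of LTR families outside the rule held 1 that rose and 1 that fell, and 73.3% lay higher in every mutant library, with a median of 1.90. The classes passed the filter in different ways, and 32 of the 176 LTR insertions but 111 of the 157 non-LTR insertions had both controls at 10 or more. Among insertions with both controls at 10 or more the median was 0.87 for the 32 LTR insertions described here, −0.43 for 5 of other LTR families, 0.49 for the 111 non-LTR, 0.17 for 33 DNA transposon and 0.14 for 37 INE-1 insertions. The difference between the classes was not tested.

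**Figure D5:**
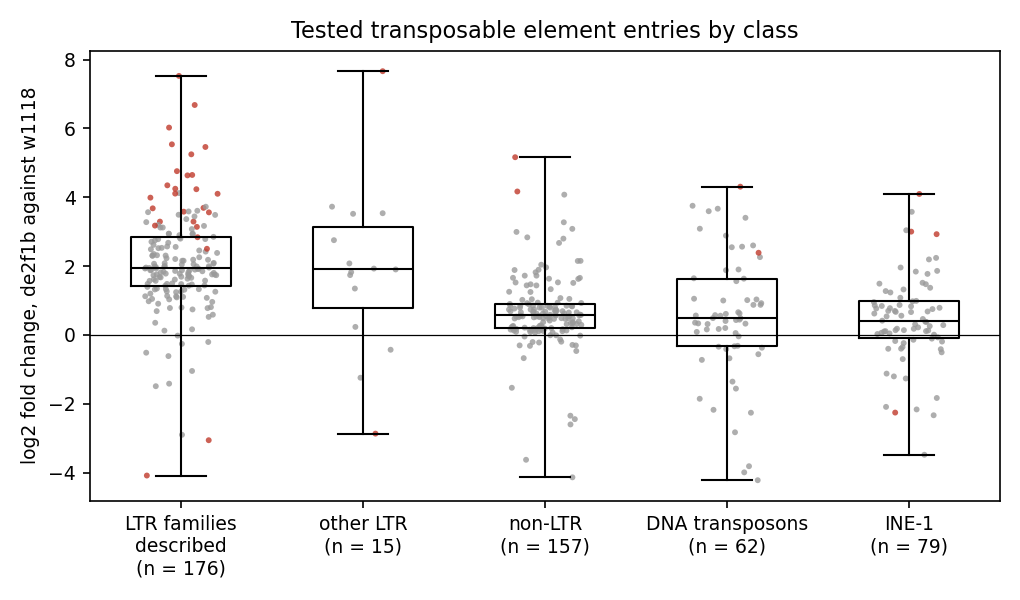
Log2 fold change of *de2f1b* against *w1118* for the tested insertions of each class of transposable elements, 1 point per insertion, red where called, with boxes for the quartiles and whiskers to the lowest and highest insertion. The median of the 176 LTR insertions is 1.95, beside 1.90 for other LTR families and 0.41 to 0.57 for the other 3 classes.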

How the data were processed

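RNA-seq of L3 SGs was analysed in 6 libraries, 2 of *w1118* and 4 of *de2f1b*, grouped by the genotype in the labels. Per the study's methods and processing notes, the authors checked paired-end reads with FastQC 0.11.8, aligned them with STAR 2.7.6a, counted them with featureCounts 1.6.0 on annotation release 102 (BDGP6) and used DESeq2, whose version is not given in the sources used here. The treatment of reads that fit several insertions, and the strand setting of the counting, are not given there either. The deposited value of each library is a signal: reads scaled by that library's size factor. All values (100%, within 0.001) were whole multiples of 1 read, so whole reads were recovered. The same deposited table holds the authors' mean signal, log2 fold changes with standard errors, a test score and p-values with their adjusted values, and none of these was used. Positions come from Ensembl release 115 (BDGP6.54), and 1142 of the 1144 insertions matched by ID.

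Entries at 10 or more in at least 2 libraries were tested with limma 3.58.1 (R 4.3.3) on log2(signal + 1), with genotype alone in the model, a trend of variance on intensity, and two-sided p adjusted by Benjamini-Hochberg over 11099 entries. On this scale the change of low entries is understated. The test was tried on simulated data before use. The recovered counts were tested with edgeR 4.0.16, which called 198 entries higher and 89 lower, and DESeq2 1.42.0, which called 1088 and 556. Other alternatives were the pseudocount (0.5, 10), the filter (none, a mean of at least 100), the scaling (equal totals, median of ratios, TMM), limma without trend or with robust variance, a replicate block and each library left out. After the data were seen, leaving out *de2f1b* replicates 3 and 4 together and counting entries named *Max* were added. Replicates are labelled biological, without saying whether cultures were separate. p-values measure the spread between these libraries.

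Insertions named are those called, the 12 with the highest mean, and those whose groups do not overlap with a group mean of at least 100, each with the gene that holds it. The rule also lists Max-element, a name that no entry carries. The members, gene lists and tests were chosen with earlier results of these data known. No sequence is printed, since no genome sequence was used. Python 3.11.15 with pandas 2.3.3, NumPy 2.4.6, SciPy 1.17.1 and Matplotlib 3.10.9 did the rest.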

Additional observations from a re-analysis of the deposited data

Results flagged for a closer look

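In 4 of the 42 values examined over the 4 *de2f1b* libraries, 1 library lay far from the other 3, with a gap to its nearest neighbour on the log2 scale (of the normalized count + 1, or of the sum), as a share of the group's range, above Dixon's 95% critical value for 4 samples, where chance gives about 2.1 of 42. The sum of all LTR insertions was 13266 in *de2f1b* replicate 1, beside 8992 to 9167 in the other 3 (a gap of 0.951 of the range), and this is the library with the highest midgut markers. *de2f1b* replicate 3, with the next highest midgut sum (35105), had the lowest LTR sum of the mutants, 8992. The part of midgut RNA in these sums was not tested. *copia{}RR48341* was 109 in *de2f1b* replicate 1 and 41.4 to 47.9 in the others (0.851). *springer{}1464* was 373 in *de2f1b* replicate 2 and 536 to 576 in the others (0.833). *Stalker4{}2894* was 9.59 in *de2f1b* replicate 2, from 7 reads, and 25.3 to 29.7 in the others (0.856). On the linear scale the shares were 0.959 for the sum, 0.904 for *copia{}RR48341*, 0.801 for *springer{}1464* and 0.783 for *Stalker4{}2894*, the last 2 of which are under the critical value.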

How the results depend on the processing

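The number of insertions called depended on the setting, and the median log2 fold change of those tested stayed above 0 in each setting run. From 25 higher and 2 lower, limma called 15 and 2 with a pseudocount of 10, 10 and 1 with no filter (615 tested), 7 and 2 with a mean of at least 100 (12 tested), 19 and 0 with equal totals and 48 and 2 without trend. Over all entries of the table the main setting called 352 and 119. In the same order the others called 275 and 117, 208 and 71 (17753 tested), 254 and 109 (8166 tested), 309 and 116, and 401 and 90. edgeR called 12 and 1, DESeq2 65 and 2. The median, 1.95, was 1.10 with a pseudocount of 10, 0.57 with no filter and 3.43 with a mean of at least 100. With 1 library left out, limma called 5 to 11 higher and 0 to 1 lower, with medians from 1.82 to 2.20, and without *de2f1b* replicates 3 and 4 together 6 and 0. Over all 11099 entries it called 69 to 216 higher and 5 to 66 lower with 1 library left out. The log2 ratio of the summed counts, 1.05, ranged from 0.74 to 1.46 with 1 library left out. Only *copia{}920*, not called in any setting, changed sign, to 0.13 with equal totals, 0.0064 with TMM, 0.33 with the replicate block, 0.69 without *w1118* replicate 1, 0.17 without *de2f1b* replicate 2, 0.015 without replicate 3 and 0.052 without replicates 3 and 4, with −0.73 to 0.69 over the libraries left out. *mdg3{}5851* passed the threshold in DESeq2 (adjusted p = 0.0419). The cause of these differences was not tested. With *Max* entries counted in, 25 were higher and 3 lower.

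The replicate block left 0 insertions higher and 0 lower, with a median of 2.04, and 5 and 2 over all 11099 entries. Whether its 2 shared numbers mark paired libraries is not given in the sources used here. The deviations of same-numbered libraries from their group means correlated at −0.32 and −0.36. With 2 controls their deviations are mirror images of each other, so these correlations cannot decide whether the libraries are paired. The block also leaves few residual degrees of freedom. Depth limits low copies: with 3 reads worth 2.35 to 4.11, no fold change of an insertion without control reads is known beyond its lower bound.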

Other observations

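Insertions outside the rule gave values of the same kind. *Max{}RR48810* (2L:22765149-22773721), an LTR element that the table names *Max*, fell from 184 and 154 normalized counts in *w1118* to 45.4, 17.8, 19.0 and 15.6 in *de2f1b* (log2 fold change −2.87 in limma, adjusted p = 0.0414). 3 further *Max* copies were tested, and none was called. *Max{}5599* had 5.84 and 3.67 against 60.0, 23.3, 55.2 and 24.2. The 22 *Max* entries summed to 213 and 179 in the controls and to 219, 93.1, 160 and 93.8 in the mutants, and the groups overlapped.

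*Yp3*, a yolk protein gene on the list of ovary markers, rose from 114 and 57.8 to 4424, 2918, 2709 and 4098 (log2 fold change 5.39, adjusted p = 0.00136), while *Yp1* was at most 3.67 and *Yp2* at most 18.8 in all 6 libraries.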
